A study of Rattus norvegicus with 20 samples.

Results

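The 5 rat microRNAs rno-miR-188, rno-miR-743a, rno-miR-760-5p, rno-miR-874 and rno-miR-878, were followed on every array of soleus muscle and dorsal root ganglia (DRGs) from rats with an injured or compressed sciatic nerve. These 5 of the 348 miRNAs that carried 1 name in all files were selected on their measured values, for signals that were lower in soleus after nerve entrapment and after decompression. The soleus values are therefore given as a description without a test. Only the DRG arrays, which played no part in the selection, were tested. All 5 were on the array, and all 5 had a detection call on at least 3 soleus arrays.

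The rats were adult male Sprague-Dawley animals. For denervation the right sciatic nerve was cut, a segment was removed, and the proximal stump was tied and moved up into thigh muscle. Denervation lasted 6 months. For entrapment a loose silastic tube lay around the nerve for 6 months, and for decompression this tube was taken out after 6 months and tissue was collected 3 months later. Sham rats were the control. Each tissue had 3 arrays per injury group and 1 sham array, 20 arrays in all. The methods give 3 rats for each group, sham included, while the labels give 1 sham array and do not say whether it holds RNA of 1 rat or a pool. The spread among sham rats can therefore not be measured. Each array gave, for every miRNA, a gene signal on a linear intensity scale in arbitrary units after subtraction of background, an error that the scanner software estimated for that signal, and a detection call. In the text, ± is this error on a single array unless SD is written.

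A miRNA is a short RNA that guides Argonaute proteins to messenger RNAs, which are then repressed. Bases 2 to 8 from its 5′ end, the seed, carry most of the target recognition. The skeletal muscle miRNAs are miR-1, the miR-133 family, miR-206 and miR-499, and none of the 5 belongs to them. miR-743a and miR-878 come from a cluster on the X chromosome that is known chiefly from the testis of rodents. miR-188 lies with miR-532, miR-500, miR-501 and miR-362 inside Clcn5, which encodes a chloride/proton exchanger, and miR-874 lies inside Klhl3, which encodes a substrate adaptor of a ubiquitin ligase.

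The mature sequences below, from RefSeq with the GRCr8 build, are shown 5′ to 3′ with the seed in capitals, because they show that the 5 miRNAs do not form a seed family. The array names rno-miR-188, rno-miR-743a and rno-miR-874 give no arm. The arm that carried the plain name in older miRNA catalogues is shown for these 3, and the names of the other 2 matched exactly.
rno-miR-188-5p: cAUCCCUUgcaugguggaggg
rno-miR-743a-3p: gAAAGACGccaaacuggguaga
rno-miR-760-5p: cCCCUCAGgccaccagagcccg
rno-miR-874-3p: cUGCCCUGgcccgagggaccga
rno-miR-878: gCAUGACAccauacuggguaga
The 5 seeds differed from each other, and no other of the 694 mature sequences in the RefSeq table carried any of them. The mature miRNAs lie at chrX:17919595-17919615 on the + strand for miR-188, inside Clcn5, and at chr17:6626076-6626097 on the + strand for miR-874, inside Klhl3. The other 3 are on the − strand. miR-743a lies at chrX:150444098-150444119 and miR-760-5p at chr2:213077316-213077337, both outside any other annotated gene, and miR-878 lies at chrX:150474263-150474284 inside the non-coding gene LOC108349259. GC content was 77.3% in miR-760-5p and in miR-874, higher than in 99.0% of the mature sequences, whose median was 47.8%. It was 61.9% in miR-188 and 50% in miR-743a and miR-878.

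Before any member is described, 3 features of the soleus arrays need to be stated. The sham array was the dimmest, with a 75th percentile of 409 over the 108 miRNAs detected on all 10 arrays. Denervation 3 was nearly as dim, at 413, against 1426 and 2539 on denervation 1 and 2. The scanner files of sham, denervation 1 and denervation 2 also share a layout that the other 7 soleus files lack. On each of these 3 arrays, 11 to 15 of the 26 or 27 control signals of at least 20 were equal to a control signal on another soleus array. The match could be with any control feature, and the other 7 soleus arrays were not examined in this way. No signal of the 5 miRNAs on these 3 arrays was equal to a miRNA signal on another soleus array. The groups also differed in the level of features that should stay dark. The median of 12 control features for fly sequences, none of which was detected on any array, was 0.577 on soleus sham and between −0.290 and 2.62 on the denervation arrays. It was between −1.80 and −1.46 on the entrapment arrays, and the decompression arrays ranged from −3.13 to −1.43. The marker miRNAs of both tissues were compared with the labels. The 5 skeletal muscle miRNAs summed to between 77740 and 235321 on the soleus arrays and to between 209 and 371 on the DRG arrays, although miR-499 was not detected on soleus sham. Of the 5 ganglion miRNAs, all were detected on all 10 DRG arrays, and miR-124, miR-9 and miR-183 were detected on no soleus array. The other 2 had calls in soleus, miR-182 on 2 denervation arrays at up to 87.0 and miR-96 on 1 decompression array at 30.7, against at least 211 and 1576 on the DRG arrays.

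**Figure D1:**
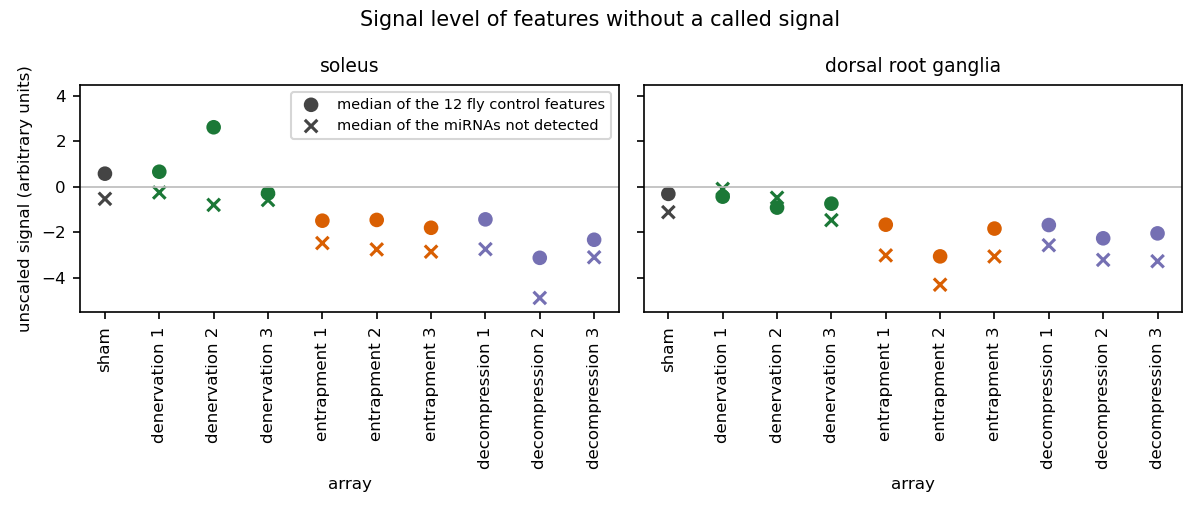
Median unscaled signal (y axis, arbitrary units) of the 12 fly control features (circles) and of the miRNAs without a detection call (crosses) on each of the 10 soleus and 10 DRG arrays (x axis), coloured by group. In both tissues the circles of all 6 entrapment and decompression arrays lie below those of the sham and denervation arrays, at −1.43 or lower.

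Of the 5 miRNAs, 4, namely miR-188, miR-743a, miR-874 and miR-878, had the same pattern in soleus. They were detected on sham, denervation 1 and denervation 2 and on no other soleus array. miR-188 gave a signal of 59.6 ± 4.79 on sham, 16.0 ± 3.15 and 32.5 ± 3.97 on denervation 1 and 2, and 7.33 ± 2.50 on denervation 3, where it was not detected. After entrapment miR-188 gave 5.96 ± 2.39, 1.70 ± 2.40 and 0.325 ± 2.52, and after decompression −0.182 ± 2.58, −7.83 ± 4.46 and −1.93 ± 2.78, with no detection call. The highest of these 6 signals was 2.49 errors above 0, while the sham signal was 12.4 errors above 0. On denervation 3 and entrapment 1 miR-188 was within 1 error of the same level.

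miR-874 was dimmer but ran the same way. Its signal was 23.2 ± 2.09 on sham, 9.19 ± 2.15 and 20.9 ± 2.59 on denervation 1 and 2, and 2.31 ± 1.74 on denervation 3. After entrapment it was 0.755 ± 1.67, −1.39 ± 1.70 and −3.70 ± 1.78, and after decompression −1.40 ± 1.83, −7.26 ± 3.15 and −2.82 ± 1.97. Its unscaled signals on sham and denervation 2 lay within 1 combined error of each other.

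miR-743a gave 57.3 ± 4.66 on sham, 23.9 ± 3.39 and 34.1 ± 4.03 on denervation 1 and 2, and 2.68 ± 2.45 on denervation 3. miR-743a was below 0 on all 6 entrapment and decompression arrays, from −8.62 ± 4.46 on decompression 2 to −0.452 ± 2.35 on entrapment 1. miR-878 gave 57.3 ± 4.71 on sham, 25.1 ± 3.43 and 35.7 ± 4.11 on denervation 1 and 2, and 2.85 ± 2.46 on denervation 3. On the 6 compressed or decompressed arrays miR-878 ranged from −7.02 ± 4.46 to 0.478 ± 2.35. The 6 arrays thus lay below the other 4 for each of these miRNAs, with denervation 3 the nearest of the 4. In unscaled signal the 6 lay below the other 4 for 76 of all 348 miRNAs (21.8%).

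miR-760-5p departed from this pattern and from the selection's description, since it was not detected on sham, where its signal was 0.317 ± 1.58. It was detected on all 3 denervation arrays, at 13.9 ± 2.42, 53.6 ± 4.65 and 6.10 ± 1.78. After entrapment miR-760-5p gave −1.67 ± 1.67, −2.38 ± 1.70 and −2.85 ± 1.78, and after decompression −3.10 ± 1.82, −1.55 ± 3.16 and −3.25 ± 1.97. It was therefore lower after entrapment and decompression than after denervation, and not measurably lower than on sham. Of 348 miRNAs it was the only one detected on the 3 denervation arrays and on no other soleus array, which is 0.287%. Across the 10 soleus arrays its scaled log2 signal had a Pearson correlation of 0.27 to 0.38 with the other 4, which had 0.96 or more among themselves.

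**Figure D2:**
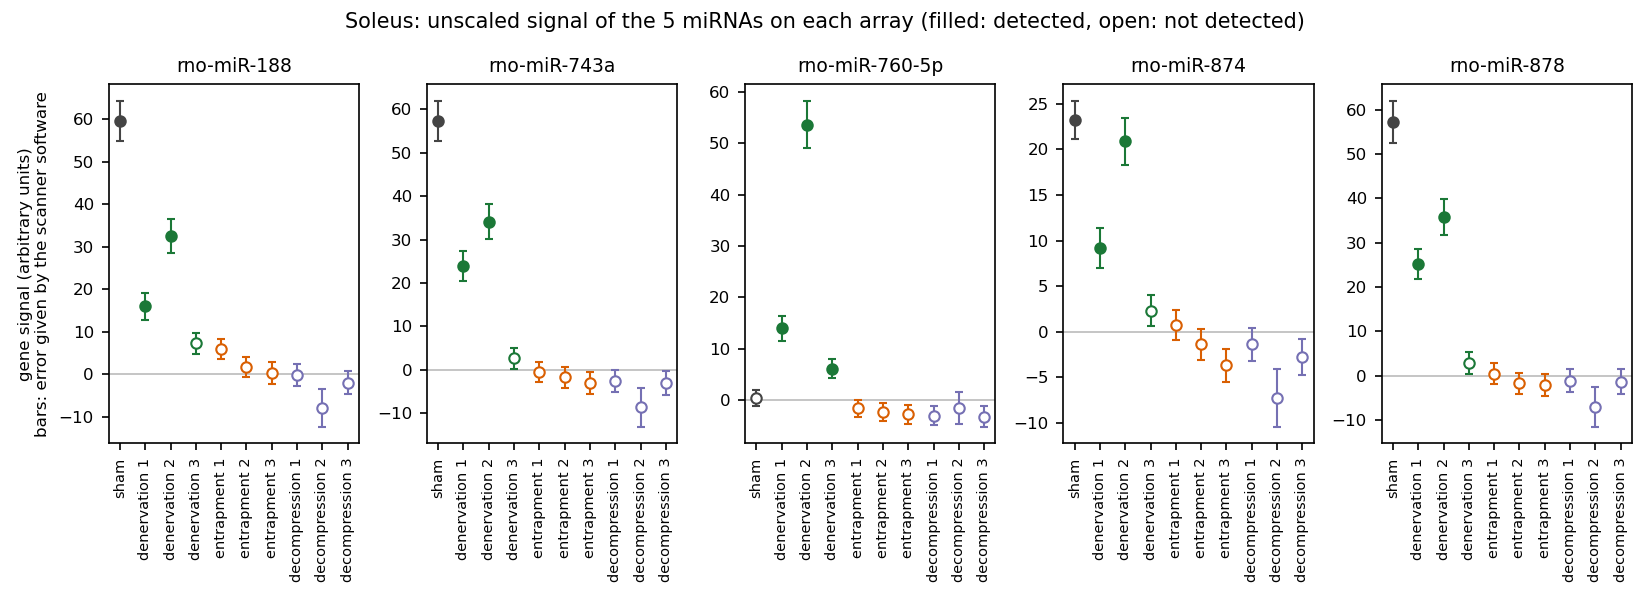
Unscaled gene signal (y axis, arbitrary units, with its own scale in each panel) of the 5 miRNAs on the 10 soleus arrays (x axis), coloured by group. Bars are the error given by the scanner software for that array, filled points were detected and open points were not. The sham point is at 23.2 to 59.6 for 4 miRNAs and at 0.317 for miR-760-5p, and all 30 points after entrapment and decompression are open.

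For the members in soleus, detection call and error went together. Of the 50 member signals there, 15 were called detected, and 15 exceeded 3 times their error. This did not hold for every miRNA, since the dimmest detected signal on sham was below 0, at −5.09 after scaling. In the DRGs it did not hold for the members either. For 4 members the 3 detected arrays are the 3 arrays of the shared file layout, and denervation 3, the only denervation array with the other layout, was not among them. Layout and detection cannot be told apart for these 4. miR-760-5p broke with the layout, since it was not detected on sham and was detected on denervation 3. In all 6 miRNAs were detected on these 3 arrays and on none of the other 7, the 4 members with miR-193* and miR-341, and 0 had the reverse pattern. All 5 members were higher on denervation 3 than on any of the 6 entrapment and decompression arrays, by 1.37 for miR-188 and by 7.65 for miR-760-5p, against errors on denervation 3 of 2.50 and 1.78. The share of all miRNAs with this order was not counted. The fly control median was also higher on denervation 3, at −0.290, than on these 6 arrays, at −1.43 or lower. After subtraction of each array's own median, miR-188 was at 7.62 on denervation 3 and at 7.45 on entrapment 1.

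The same loss of a call was seen in 16 of 348 miRNAs (4.6%), which were detected on soleus sham and on none of the 6 entrapment and decompression arrays. Soleus sham detected 152 miRNAs in all, and only these could lose a call. By sham signal the 4 members held places 2, 3, 4 and 6 among the 16. The brightest was miR-345-3p at 60.8 ± 3.60. The remaining 11, from place 5 downward, were miR-23a*, miR-760-3p, miR-341, miR-330*, miR-134, miR-423, miR-708, miR-193*, miR-138*, miR-877 and miR-338*, at 25.3 to 2.74. On denervation 3 only miR-138* and miR-338* of the 16 were detected. miR-760-3p, the other strand of the miR-760 hairpin, had the opposite order of groups to miR-760-5p within sham and denervation. It was detected on sham at 21.2 ± 1.93 and on no denervation array, where it lay between −0.776 and 8.91.

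**Figure D3:**
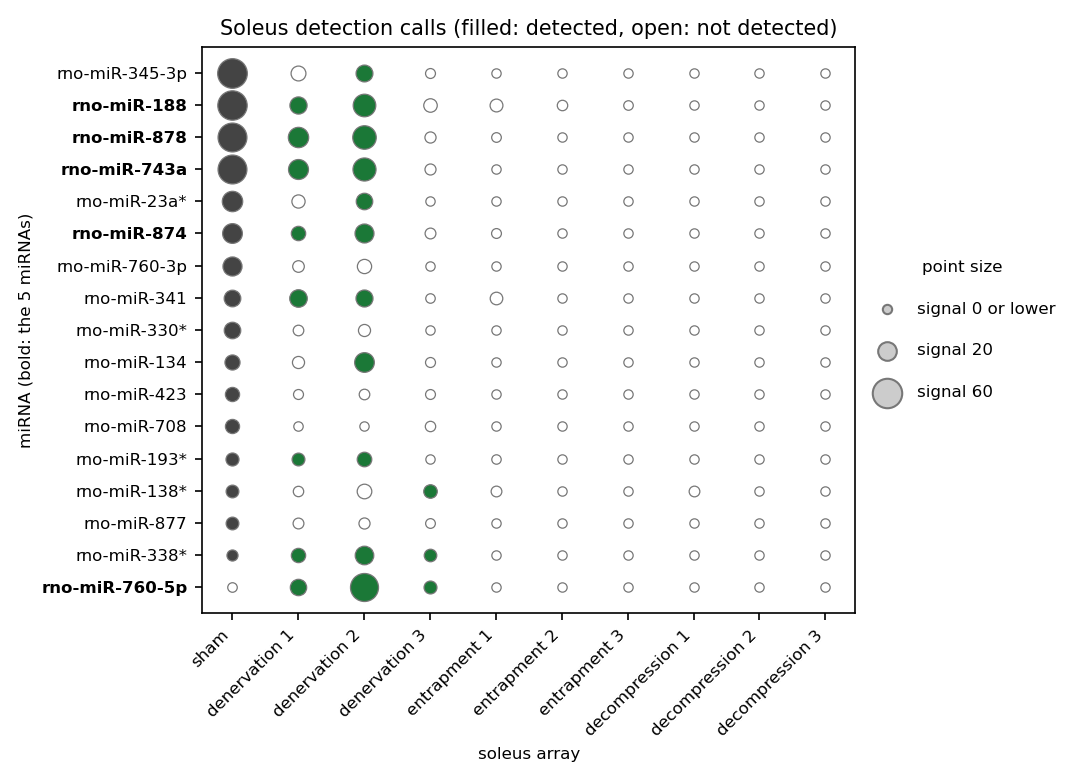
Detection calls in soleus (x axis, the 10 arrays) for the 16 miRNAs detected on sham and on no entrapment or decompression array, ordered by sham signal, and for miR-760-5p in the bottom row (y axis, the 5 miRNAs in bold). Filled points were detected and open points were not, and the point size grows with the unscaled signal. The 4 members with a sham call share 3 filled points, and miR-760-5p has 3 filled points under denervation alone.

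For fold differences each array was divided by its 75th percentile, and signals under a floor of 2.72 on the scaled intensity were set to that floor. Of 173 miRNAs detected on at least 3 soleus arrays, 47 (27.2%) were under sham by at least 2-fold on all 3 entrapment arrays, and 47 (27.2%) on all 3 decompression arrays. In both comparisons 4 of the 5 members were among them. miR-760-5p, at the floor on sham and on all 6 arrays, was not. This count was part of the selection and supports nothing by itself. The median log2 difference of the 5 from sham was −5.72 after entrapment and −5.82 after decompression, beside −0.37 and −0.29 over all 173. Where every array of a group lacked a call, the difference has only a bound. On each array it was set against whichever was highest, the dimmest detected signal of any miRNA, the floor or the member's own signal. A member could lack a call well above the dimmest detected signal, as miR-188 did on denervation 3, at a scaled 19.4 against 9.26. The bounds therefore hold for this limit and not for each miRNA's own limit of detection. Relative to sham, and on the scaled intensities, miR-188 was lower by at least 42.4-fold in the entrapment group and by at least 56.5-fold in the decompression group. The same bounds for miR-743a were 45.4-fold and 54.3-fold. They were the same to 3 digits for miR-878, and they were 18.4-fold and 22.0-fold for miR-874. Without scaling the bounds were smaller, 13.7-fold and 20.6-fold for miR-188, 16.8-fold and 19.8-fold for miR-743a and for miR-878, and 6.83-fold and 8.05-fold for miR-874. These bounds compare with 1 sham array and carry no error of their own, and between entrapment and decompression no member can be ordered because neither group had a call.

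After denervation 32 of 173 miRNAs (18.5%) were at least 2-fold lower than sham on each array, the same 4 members among them, and 27 (15.6%) were at least 2-fold higher, miR-760-5p among them. The mean log2 difference from sham was −3.41 ± 0.34 (SD over 3 arrays) for miR-188, −3.62 ± 0.72 for miR-743a, −3.55 ± 0.71 for miR-878 and −3.09 ± 0.28 for miR-874. These sizes rest on the scaling. Without it the median log2 difference over the 173 miRNAs was 1.32 after denervation, 1.04 after entrapment and 1.02 after decompression, in place of −0.07, −0.37 and −0.29. Without it also 0 of the 5 members were 2-fold lower on each denervation array, while the 4 members stayed 2-fold lower after entrapment and after decompression under each of the 11 alternatives tried for each. miR-760-5p was at least 5.84-fold higher after denervation than on sham, at least 4.70-fold lower after entrapment than after denervation and at least 5.63-fold lower after decompression than after denervation. Without scaling these 3 bounds were 5.82-fold, 4.87-fold and 5.74-fold.

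The unscaled signals were also counted over all miRNAs. The members were selected on these arrays, so their counts here support nothing by themselves. In soleus 76 of 348 miRNAs (21.8%) had all 6 entrapment and decompression arrays below all 4 others, and all 5 members did. When each array's own median of the fly controls was subtracted, a step chosen after that drift was seen, this fell to 24 of 348 (6.9%) and to 4 of the 5 members. After the subtraction miR-760-5p was −0.26 on sham and 1.57 on decompression 2, so its arrays overlapped. miR-188 remained nearest to the edge of the other 4, at 7.62 on denervation 3 and 7.45 on entrapment 1.

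miR-743a and miR-878 could hardly be told apart on any array. Their signals differed by less than 1 combined error on 20 of 20 arrays, at most by 0.644 of it. On the 3 arrays where both were detected, the ratio of miR-743a to miR-878 was 0.951 to 1.00. Neither was detected on the other arrays, the 10 DRG arrays among them, so a small difference there carries little information. Across arrays their unscaled signals had a Pearson correlation of 0.9995 in soleus and 0.992 in the DRGs, over 10 arrays each that share brightness and background. The sequences are shown again with their last 10 bases in capitals, next to miR-743b-3p of the same cluster, since the 3′ end is the stretch that miR-743a and miR-878 share.
rno-miR-743a-3p: gaaagacgccaaACUGGGUAGA
rno-miR-878: gcaugacaccauACUGGGUAGA
rno-miR-743b-3p: gaaagacaccauACUGAAUAGA
miR-743a-3p and miR-878 were equal at 18 of 22 positions and over all of the last 10 bases, and no other mature sequence in the table ended in these 10 bases. They were equal at 4 of 7 seed positions. miR-743b-3p was also equal to miR-743a-3p at 18 of 22 positions, with 6 of 7 in the seed, but only over the last 4 bases at the 3′ end. It was detected on 0 of 20 arrays and its soleus signal was never above 0.0820. The probe sequences were not analysed here, and whether the 2 features captured the same RNA was not tested.

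**Figure D4:**
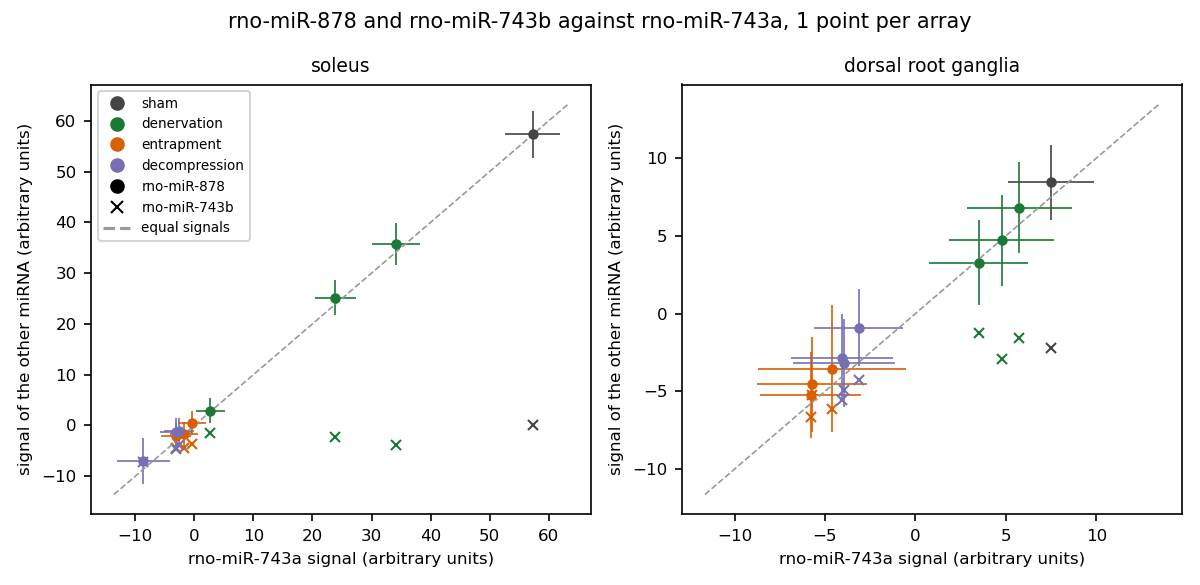
Unscaled signal of miR-878 (circles, with the scanner software's errors on both axes) and of miR-743b (crosses) on the y axis against miR-743a on the x axis, in arbitrary units, with 1 point per array for soleus (left) and DRGs (right). The dashed line marks equal signals. The circles follow the line on all 20 arrays, while the crosses stay at or below 0.0820 in soleus up to a miR-743a signal of 57.3.

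Genomic neighbours had other detection patterns. Of the miRNAs next to miR-743a and miR-878, 8 were on the array, namely miR-743b, miR-742, miR-463, miR-471, miR-871, miR-880, miR-881 and miR-883, and 0 of the 8 were detected on any of the 20 arrays. Of the miRNAs next to miR-188 in Clcn5, 4 were on the array. miR-500 was detected on all 10 soleus arrays, at 48.6 on sham, 72.5 to 118 after denervation, 30.9 to 84.1 after entrapment and 32.6 to 51.3 after decompression. miR-532-5p was detected on 9 of the 10 soleus arrays, all 6 entrapment and decompression arrays included, miR-532-3p on 2 denervation arrays and miR-501 on none.

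The miRNAs most like each member across the 10 soleus arrays, by Pearson correlation of the scaled log2 signal among 168 others, are a description only, since these arrays share brightness, layout and background. They were miR-494 (0.96), miR-324-3p (0.93) and miR-125a-3p (0.93) for miR-188. For miR-874 they were miR-494 (0.97), miR-193* (0.96) and miR-320 (0.95). miR-743a and miR-878 had the same 3, miR-181b (0.97 for each), miR-341 (0.96 for each) and miR-193* (0.95 for each). For miR-760-5p they were miR-223 (0.91), which is abundant in myeloid leukocytes, miR-146a (0.90), a regulator of innate immune signalling, and miR-347 (0.87). miR-223 was detected on all 10 soleus arrays, at 26.2 on sham, 49.8 to 601 after denervation and 66.1 to 149 after entrapment. The 4 leukocyte miRNAs on the array summed to 269 on soleus sham, 187.6 to 1856 after denervation, 319 to 592 after entrapment and 336 to 448 after decompression, and their part in the miR-760-5p signal was not tested. In whole tissue, fewer cells of a type and less RNA per cell cannot be told apart.

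The DRG arrays asked whether the same miRNAs also differed between the groups in the ganglia that supply the nerve. Here the members were dim. None of the 10 DRG arrays detected miR-743a, miR-878 or miR-188, and miR-760-5p was detected on sham alone, so 1 member, miR-874, was tested. The deposited processed values of the 6 DRG entrapment and decompression arrays match the scanner files of the other of these groups, so the 2 labels may be exchanged in the DRGs. The scanner files' labels are used below, and every DRG comparison is given for both groups.

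miR-874 was detected on DRG sham at 4.32 ± 1.68 and on the 3 denervation arrays at 4.13 ± 2.06, 5.65 ± 2.12 and 3.37 ± 1.97. It was detected on no other DRG array, with −4.71 ± 2.15, −5.30 ± 1.97 and −3.76 ± 2.90 after entrapment and −1.56 ± 1.75, −3.08 ± 2.01 and −3.46 ± 2.01 after decompression. The 6 entrapment and decompression arrays lay below the other 4, as they did for 220 of 348 miRNAs (63.2%) in unscaled signal. None of the 4 called signals exceeded 3 times its error. Of 348 miRNAs, 10 (2.87%) were called on the same 4 arrays and not on the other 6, while 211 were called on these 4 arrays whatever the others showed.

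miR-874 passed the filter of 3 detected arrays only through sham and denervation, the groups where it was high, so the filter fixed the direction of what follows and the tests are no independent support for it. In limma with Benjamini-Hochberg adjustment over 219 miRNAs, the floored log2 value of miR-874 was lower by the same amount in both comparisons with denervation, −0.62 (SE 0.19), with an adjusted p of 0.0359 for entrapment and 0.0373 for decompression. All 6 entrapment and decompression arrays lay at the floor, so this size is that of the distance to the floor. Without the filter the adjusted p in limma was 0.0795 and 0.0861. With the filter, limma called 72 of 219 miRNAs lower (32.9%) in the first comparison and 61 (27.9%) in the second, so a lower call was common in the DRGs. With median scaling the split turned, with 24 lower and 126 higher in the first and 26 lower and 128 higher in the second. The median log2 difference over the 219 was −0.15 in both comparisons, and with median scaling it was 0.49 and 0.51. For miR-874 the bound was 1.36-fold in the first comparison and 1.52-fold in the second. Both of its calls were lost in limma when any 1 entrapment or decompression array was left out, the second also without denervation 1, with an adjusted p of up to 0.0848 and 0.0875, and both were lost under median or loess scaling. Relative to sham the log2 difference was −0.72 (SE 0.27) in each group, with an adjusted p in limma of 0.0950 after entrapment and 0.101 after decompression. In these 2 comparisons limma called 19.6% and 18.3% of all miRNAs. Denervation against sham gave −0.10 (SE 0.27, adjusted p in limma of 0.890) with 0.457% of all miRNAs called, and decompression against entrapment gave 0.00 (SE 0.19, adjusted p in limma of 1) with 0% called. In that last comparison both groups were at the floor.

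The other 4 members were dim in the DRGs, and their signals ran the same way for 3 of them. miR-188 gave 9.74 ± 2.43 on sham, 4.82 to 7.64 after denervation, −1.37 to 2.15 after entrapment and −0.453 to 2.80 after decompression. miR-743a gave 7.48 ± 2.39 on sham, 3.48 to 5.74 after denervation and −5.79 to −3.15 on the 6 other arrays. miR-878 gave 8.44 ± 2.42, 3.28 to 6.81 and −5.24 to −0.907. The sham signals of these 3 were 3.13 to 4.01 errors above 0 and still had no detection call, while miR-874 had a call at 2.57 errors.

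miR-760-5p was detected on DRG sham at 5.35 ± 1.68 and not after denervation, at 2.48 to 3.03, and it reached 2.93 ± 2.90 on entrapment 3, so its groups overlapped. With these 4 members in the fit, the adjusted p in limma was 0.00658 for miR-188, 0.00378 for miR-743a, 0.0101 for miR-878 and 0.00439 for miR-760-5p between entrapment and sham. Between decompression and sham it was 0.0123, 0.00364, 0.00961 and 0.00251 in the same order. The same fits called 67 of 348 miRNAs (19.3%) and 59 of 348 (17%). The values of miR-188, miR-743a and miR-878 rest on signals without a call in either group compared, and that of miR-760-5p on signals without a call outside sham. All 6 entrapment and decompression values of miR-743a and miR-878 lay at the floor, with an SD of 0 in each group. So did those of miR-188 after entrapment and of miR-760-5p after decompression. The spread behind these p-values was therefore set in part by the floor. In unscaled signal, 220 of 348 miRNAs (63.2%) lay lower on all 6 DRG entrapment and decompression arrays than on the other 4, and 183 (52.6%) did so after subtraction of the fly controls. In both cases 4 of the 5 members did so, which beside these shares is no result about the members. The fly controls' own median was −0.917 to −0.313 on the sham and denervation arrays of the DRGs and −3.06 to −1.67 on the 6 others, and its part in the members' DRG values was not tested.

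**Figure D5:**
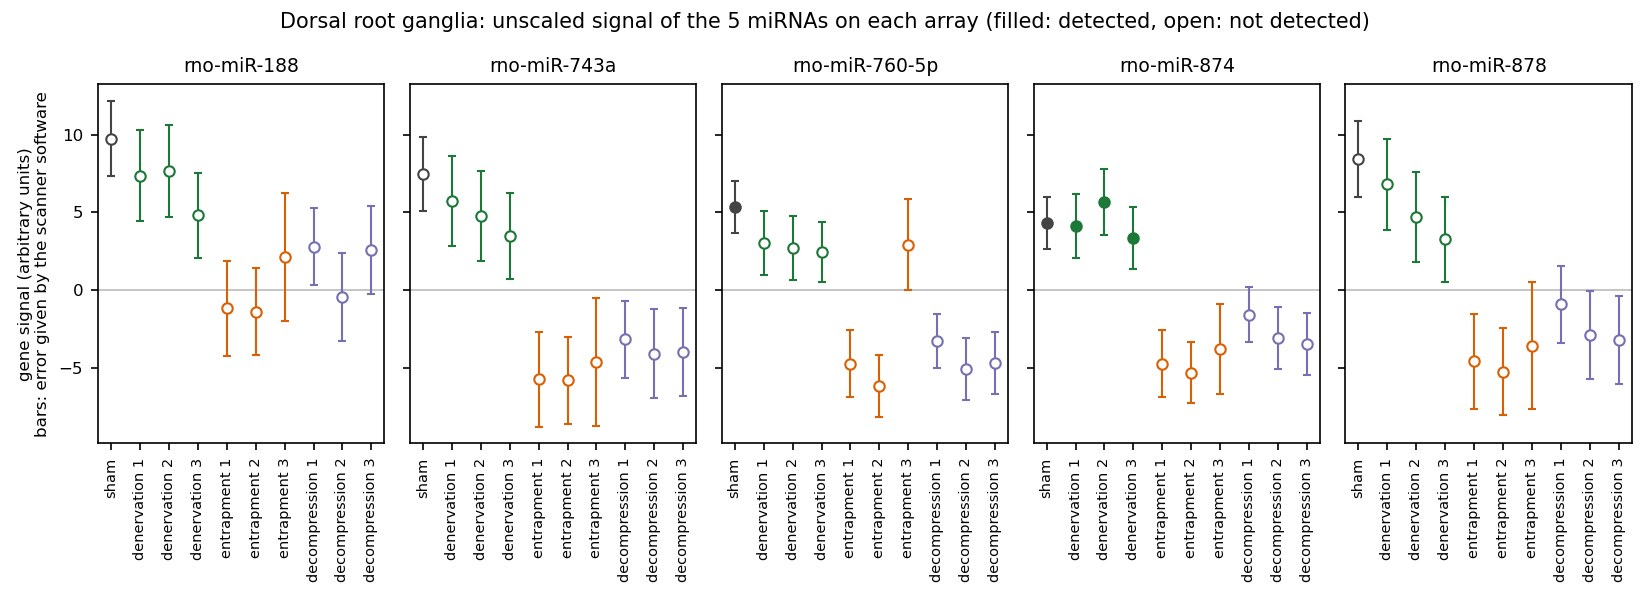
Unscaled gene signal (y axis, arbitrary units, one scale for all panels) of the 5 miRNAs on the 10 DRG arrays (x axis), coloured by group as labelled in the scanner files, with the scanner software's error as bars. Filled points were detected and open points were not. Filled points are miR-874 on sham and denervation, between 3.37 and 5.65, and miR-760-5p on sham at 5.35.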

How the data were processed

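The data come from 20 Agilent arrays for rat miRNAs, read in 1 colour. Per the labels and the authors' methods, RNA was labelled with Cy3 and read with Agilent Feature Extraction 9.5.3. The authors deposited each miRNA's total gene signal, a linear intensity from which background had been subtracted, without normalization between arrays, and its error and detection call. They also deposited a table of processed signal values, used as an alternative only. The rank-consistent LOWESS of the study could not be repeated as such, since its reference is not given in the sources used here. Of 350 names, 2 that differed between files were left out.

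Each array was divided by its 75th percentile, taken in the DRGs over all miRNAs and in soleus over those detected on all 10 arrays. Signals under the floor (the median over arrays of the dimmest detected signal) were set to it before log2. miRNAs detected on at least 3 arrays of a tissue entered the comparisons. limma 3.58.1 in R 4.3.3 (lmFit and eBayes, two-sided, group as the only term, Benjamini-Hochberg threshold 0.05) was fitted to the 10 DRG arrays, with 6 residual and 2.12 prior degrees of freedom. The 1 sham array was assumed to vary like the others. Tested on simulated data with 40 of 219 miRNAs changed, the fit recovered 38 with 2 false calls. Recovery of small differences with whole groups at the floor, as for miR-874, was not tested. P-values measure the spread between arrays. The members and marker lists were chosen with earlier results of these data known. Named miRNAs were the members, their listed neighbours and markers, the 3 most alike per member, and those detected on sham alone or with denervation. Plots used Python 3.11.15 with matplotlib 3.10.9.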

Additional observations from a re-analysis of the deposited data

Results flagged for a closer look

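miR-760-5p was higher than sham on all 3 soleus arrays after denervation, by a mean of 2.54 on the log2 scale, and lower than sham on all 3 DRG arrays, with a mean of −0.997. In soleus it was not detected on sham, and in the DRGs it was not detected after denervation. The difference between the tissues was not tested. No group held between 4 and 10 arrays, so no search for a single outlying array within a group was possible.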

How the results depend on the processing

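In soleus the count of members at least 2-fold lower than sham stayed at 4 after entrapment under all 11 alternatives, leaving out each array included, and was 4 or 5 after decompression. After denervation it was 4 except with no scaling and with the authors' processed values, which gave 0 each. Over all 173 miRNAs the count fell from 32 to 4, 16 and 4 after denervation with no scaling, loess and processed values, and was 52 on denervation 3 alone. After entrapment it fell from 47 to 13 with no scaling, 21 with the percentile over all miRNAs, 21 with quantile normalization, 24 with loess and 13 with processed values, and after decompression from 47 to 20, 21, 28, 28 and 18 in the same order. Leaving out 1 array gave 35 to 38, 47 to 56 and 47 to 59 after denervation, entrapment and decompression, and the member count was 4 each time.

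In the DRGs no scaling, processed values, a pseudocount of 1 and a floor of 1 each brought the members called by limma from 0 to 1 against sham after entrapment, and after decompression. Without the filter on detection 1, 4 and 4 members were called against sham after denervation, entrapment and decompression, and 3 and 3 of entrapment and decompression against denervation, beside 16, 67, 59, 84 and 84 of all 348 miRNAs. Against denervation the 1 call became 0 with median scaling and loess, and for decompression also with the intensity trend. Leaving out 1 array gave 0 to 1 members in each of these 4 comparisons, with the call against sham gained only without denervation 2.

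All miRNAs called in the DRGs after denervation against sham numbered 24 with quantile normalization, 4 with loess and 16 without the filter, against 1. Entrapment against sham gave 67 with no scaling, 141 with median scaling, 67 without the filter and 22 with detection on all 10 arrays, against 43. Decompression against sham gave 148 with median scaling, 61 with the percentile over detected miRNAs and 20 with detection on all 10 arrays, against 40. Entrapment against denervation gave 150 with median scaling, against 90, and decompression against denervation gave 129 with no scaling, 154 with median scaling and 53 with detection on all 10 arrays, against 80. Leaving out 1 array gave 37 to 59, 33 to 51, 60 to 83 and 57 to 86 in the last 4 comparisons. The cause of these shifts was not tested.

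The log2 difference of miR-874 between denervation and sham in the DRGs, −0.10, turned to 0.0997 with median scaling, 0.141 with quantile normalization, 0.0481 with loess and 0.007 with processed values, ranged from −0.363 to 0.0638 on leaving out 1 array, and was called in none. Whether the replicate numbers pair the DRG arrays was not settled. Of 9 same-numbered pairs, 4 correlated above 0.1 (−0.12 to 0.48), and differently numbered pairs were not computed for comparison. With the replicate number as a block, 90 and 80 miRNAs were called of entrapment and decompression against denervation, and miR-874 kept both calls in limma (adjusted p = 0.0392 and 0.0397). In the DRGs the member detection calls numbered 5, 4 signals exceeded 3 errors and 0 exceeded 5, the last chosen after seeing the data. The single sham array, and signals near background in the DRGs, limit every value.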
